A study of Mus musculus with 6 samples.

Results

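The 10 genes described here encode Toll-like receptors and the proteins that work with them in sensing microbes and damaged cells. They were taken by name from 24421 gene rows, 9 of them passed the filter on low values (a mean CPM of at least 0.5), and 15137 genes were tested in all. The 5 receptors were *Tlr2*, *Tlr3*, *Tlr4*, *Tlr7* and *Tlr9*, the co-receptors *Cd14* and *Ly96*, the adaptors *Myd88* and *Ticam1*, and the cytosolic sensor *Nod1*. None of the 9 genes tested passed the threshold, a Benjamini-Hochberg adjusted p of 0.05 over all genes tested with limma, in either direction after loss of microglia. *Tlr3* was by far the most abundant receptor in the PBS-treated and in the DT-treated group. *Myd88* had the smallest p-value, with every library of the DT-treated group above every library of the PBS-treated group.

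RNA was sequenced from hippocampal astrocytes of Siglech dtr/dtr mice, which are male, on a C57BL/6 background, and carry the diphtheria toxin receptor under the *Siglech* promoter in both alleles. The same knock-in lowers Siglec-H itself in both groups. Mice received PBS (3 libraries) or diphtheria toxin (DT, 50 µg/kg, 3 libraries) into the peritoneum and were sampled 2 days later. The injected animals were adults, aged 8 to 16 weeks. Each library pooled the hippocampi of 2 mice, and the 3 pools of a group came from separate experiments. CD11b-bearing cells were first removed on magnetic beads, and astrocytes were then captured by the surface antigen ACSA-2.

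Toll-like receptors are membrane proteins with a ligand-binding ectodomain and a signalling domain in the cytosol. *Tlr2* and *Tlr4* work mainly at the cell surface, whereas *Tlr3*, *Tlr7* and *Tlr9* read nucleic acids inside endosomes. All of these except *Tlr3* signal through the adaptor MyD88 to IRAK kinases and NF-kappa B. *Tlr3* signals through TRIF, the product of *Ticam1*, which leads to IRF3 and type I interferon, and *Tlr4* can use both adaptors. In the brain, microglia are known for a broad set of these receptors, and astrocytes for *Tlr3*.

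Reads per library, recovered from the steps of the deposited values, lay between 21704891 and 32933975, so that 1 read was worth 0.0301 to 0.0460 CPM, the unit of reads scaled to library size. The summed level of 8 astrocyte markers was 54820 to 59256 CPM after PBS and 56128 to 62268 CPM after DT, and 0 of them passed the threshold. Of 12 microglia markers, all were below 0 in log2 fold change and 7 passed as lower, among them *Siglech*, *Cx3cr1*, *Csf1r* and *Itgam*, with *Siglech* at 0 in every DT library. Their sum was 228 to 255 CPM after PBS and 134 to 155 CPM after DT, of which 71 to 87 CPM in each library came from *Sall1*. Of 8 markers of border-associated macrophages, 6 were tested and 3 passed as higher (*Mrc1*, *Lyve1* and *F13a1*), and their sum was 18.8 to 29.5 CPM after PBS and 67.5 to 80.1 CPM after DT. Of 8 monocyte or neutrophil markers, 7 were in the table and *Ly6g* was not. The sum of these 7 was at most 5.05 CPM in any library, with *Plac8*, *S100a8* and *S100a9* at 0 in all. Endothelial markers summed to 532 to 823 CPM after PBS and 438 to 521 CPM after DT, and all 6 were below 0 in log2 fold change (median -0.39). The sum of choroid plexus markers varied from 46.5 to 857 CPM after PBS and from 538 to 1499 CPM after DT. All 6 of these were above 0 (median 1.95). None of the monocyte or neutrophil, endothelial, pericyte or smooth muscle, oligodendrocyte, neuron and choroid plexus markers passed the threshold. In bulk RNA such as this, fewer cells of a type and less RNA per cell cannot be told apart.

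Promoter sequences are shown for *Myd88* and *Tlr2*, the pair with the smallest p-values, and for *Tlr3*, the most abundant receptor. They were taken from RefSeq on GRCm38.p6, which is the mm10 assembly, and cover 250 bases before an annotated start, read on the minus strand from 5′ to 3′. The windows are chr9:119340019-119340268 for *Myd88*, chr3:83841609-83841858 for *Tlr2* and chr8:45410381-45410630 for *Tlr3*. For all 3, the GENCODE M21 gene begins further upstream than the RefSeq start. Capitals mark the motif matches described next.
Myd88: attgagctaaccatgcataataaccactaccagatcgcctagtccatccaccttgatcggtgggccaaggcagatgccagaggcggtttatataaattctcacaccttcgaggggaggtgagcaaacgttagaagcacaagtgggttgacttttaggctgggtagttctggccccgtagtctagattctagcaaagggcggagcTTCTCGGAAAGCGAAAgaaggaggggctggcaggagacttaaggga
Tlr2: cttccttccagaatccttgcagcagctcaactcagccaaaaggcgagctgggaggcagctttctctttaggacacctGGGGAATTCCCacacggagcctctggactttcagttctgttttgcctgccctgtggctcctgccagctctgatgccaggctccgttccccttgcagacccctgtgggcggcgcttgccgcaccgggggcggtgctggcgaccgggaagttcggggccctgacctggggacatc
Tlr3: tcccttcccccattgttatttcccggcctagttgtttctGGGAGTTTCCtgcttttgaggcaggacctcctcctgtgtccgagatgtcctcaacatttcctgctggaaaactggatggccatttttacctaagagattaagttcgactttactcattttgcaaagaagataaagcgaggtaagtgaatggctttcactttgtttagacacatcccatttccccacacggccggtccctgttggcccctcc

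In the *Myd88* window the capitals hold a STAT site (TTCNNNGAA) at positions -46 to -38 and an interferon-stimulated response element (GAAANNGAAA) at positions -40 to -31 from the start, which overlap each other. The *Tlr2* window holds overlapping matches to the kappa B consensus between positions -173 and -163, and the *Tlr3* window holds 1 at -211 to -202. Searched on both strands over 32851 windows of the same length, the STAT site was present in 7.02%, the response element in 2.98% and the kappa B consensus in 3.90%. An AP-1 site (TGANTCA, 6.75% of windows) and an ETS core (GAGGAA, 23.3% of windows) were also searched, and neither was found in these 3 windows. Of the other members with a window, *Nod1* held a STAT site in 1 of its 2 windows, *Ticam1* an ETS core, and *Tlr9* an AP-1 site and an ETS core. No window was at hand for *Tlr4*, *Tlr7*, *Cd14* or *Ly96*. A match is a description of the letters and not evidence of binding.

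To ask how much of this sensing system the astrocyte libraries held, levels were compared between genes in TPM, which takes gene length as well as library size into account. These libraries also held marker RNA of other cell types, as given above, and the cell source of each level was not tested. In the PBS-treated group *Tlr3* stood at percentile 85.1 of the tested genes, *Ticam1* at 54.4, *Myd88* at 37.6 and *Nod1* at 31.9, while *Tlr4* stood at 20.1 and *Tlr2* at 1.18. From the highest, the order of the means after PBS was *Tlr3*, *Ticam1*, *Myd88*, *Nod1*, *Tlr4*, *Ly96*, *Cd14*, *Tlr7*, *Tlr2* and *Tlr9*. Between neighbours in this order, the libraries overlapped in both groups for *Tlr4* and *Ly96*, for *Ly96* and *Cd14*, and for *Tlr7* and *Tlr2*. All other neighbours were separate in both groups.

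**Figure D1:**
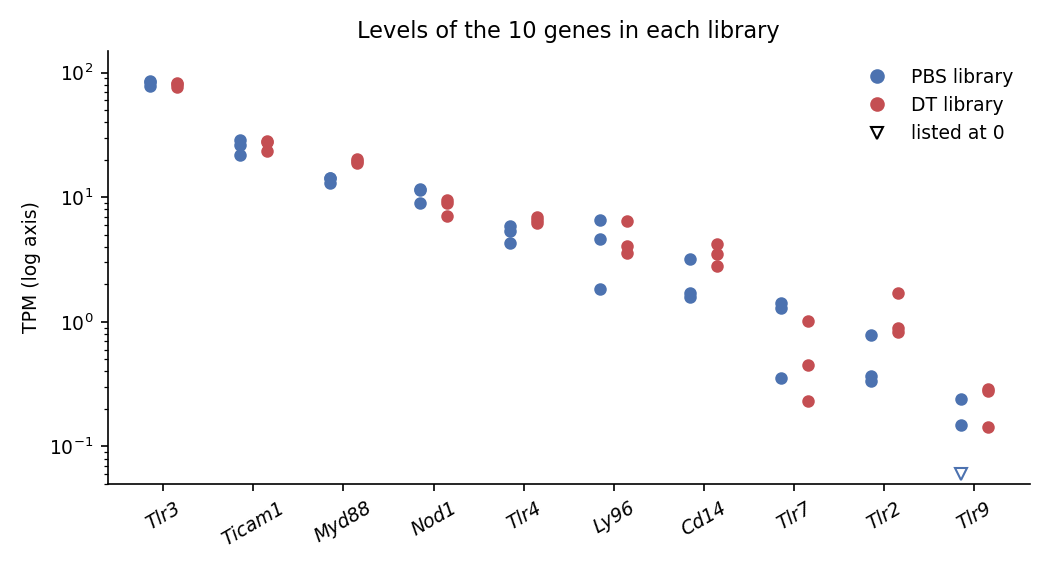
TPM on a log axis for each of the 10 genes, ordered by their mean in the PBS-treated group, with 1 point per PBS library (blue) and DT library (red) and an open triangle where a gene was listed at 0. *Tlr3* lies near 80 TPM in all 6 libraries, and *Tlr9* lies below 0.3 TPM with 1 PBS library at 0.

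*Tlr3*, which binds double-stranded RNA, lies at chr8:45395665-45411080 on the minus strand (mm10, GENCODE M21). It was read 2765, 3779 and 2771 times in the PBS libraries and 2798, 3638 and 2565 times in the DT libraries. These counts gave 127, 114 and 127 CPM after PBS and 122, 118 and 112 CPM after DT. All 6 libraries fell within a narrow range and the groups overlapped. The level was 83.1 ± 4.12 TPM after PBS and 80.1 ± 2.89 TPM after DT (SD, n = 3 each). On the scale of log2(CPM + 0.1), used for every fold change below, the difference was -0.06 with a 95% interval of -0.22 to 0.09 (standard error 0.07, limma adjusted p = 0.796), and it lay between -0.12 and -0.03 when any 1 library was left out. As a fold, this interval runs from 0.858 to 1.07. An annotated antisense gene, *Gm45542*, overlaps *Tlr3* by 698 bases, and reads were mapped with strand information.

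Among 12 Toll-like receptor genes in the table, *Tlr3* made up 88.2%, 88.4% and 88.0% of the summed TPM in the PBS libraries and 86.2%, 86.7% and 85.9% in the DT libraries. The summed TPM was 94.2 ± 4.86 after PBS and 92.9 ± 2.99 after DT (SD, n = 3 each). The share was thus slightly lower in every DT library, a comparison chosen after the values had been seen.

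*Ticam1* encodes TRIF, the only adaptor of *Tlr3*, and lies at chr17:56269319-56276786 on the minus strand. Its reads numbered 469, 911 and 557 after PBS and 527, 810 and 621 after DT, or 21.6, 27.5 and 25.6 CPM against 23.0, 26.3 and 27.1 CPM. The groups overlapped almost completely. In TPM the levels were 25.8 ± 3.54 and 26.6 ± 2.72 (SD, n = 3 each). The difference between groups was 0.04 (log2) with an interval of -0.23 to 0.30 (limma adjusted p = 0.945), and its sign turned without PBS replicate 1 or DT replicate 3.

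*Myd88*, the adaptor shared by the other receptors and by the interleukin-1 receptor family, lies at chr9:119335934-119341411 on the minus strand. The PBS libraries held 205, 304 and 185 of its reads and the DT libraries 296, 395 and 277. In CPM the PBS libraries were at 9.44, 9.16 and 8.498 and the DT libraries at 12.9, 12.8 and 12.1. Each group was tight, and the lowest DT library stood clear of the highest PBS library. The mean was 9.03 ± 0.48 CPM after PBS and 12.6 ± 0.46 CPM after DT (SD, n = 3 each), and in TPM 13.9 ± 0.69 and 19.5 ± 0.70. DT and PBS differed by a log2 fold change of 0.48 with an interval of 0.22 to 0.74 (standard error 0.11), which is 1.39-fold. Its unadjusted p was 0.00253, which ranked it 235 among the genes tested, and it did not pass after adjustment (limma adjusted p = 0.163). The adjusted p was 0.148 with edgeR and 0.0582 with DESeq2 on the recovered reads, and the range over 17 alternative fits was 0.0582 to 0.442. An exact permutation test of the 6 CPM values gave p = 0.1 (two-sided), which is the smallest value this design can reach. Leaving out any single library kept the log2 fold change between 0.43 and 0.51. *Myd88* overlaps the gene *Acaa1a* on the opposite strand by 1736 bases (mean 37.7 CPM). On its own strand the annotated span of *Slc22a14* (0 CPM) covers the whole *Myd88* gene, 5478 bases. Strand does not separate reads of these genes, and how reads were assigned between them was not tested.

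The 2 adaptors were set side by side after their values had been seen. *Ticam1* exceeded *Myd88* in TPM by 1.54, 2.02 and 2.03 times in the PBS libraries and by 1.20, 1.38 and 1.51 times in the DT libraries. The ratio was lower in every DT library than in any PBS library, although the highest DT value and the lowest PBS value nearly met.

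Over the 6 libraries and 11791 genes with a mean of at least 5 CPM, the genes whose log2 level followed that of *Myd88* most closely were *Wfs1* (Pearson r = 0.996), *Irf9* (r = 0.995) and *Mamdc2* (r = 0.993). *Wfs1* encodes a membrane protein of the endoplasmic reticulum, and *Irf9* the DNA-binding part of the interferon-activated STAT complex. *Wfs1* rose from 45.9 to 84.3 CPM (log2 fold change 0.88, limma adjusted p = 0.00115). *Irf9* had means of 29.9 and 39.7 CPM (log2 fold change 0.41, limma adjusted p = 0.0578) and *Mamdc2* of 10.2 and 15.96 CPM (0.65, limma adjusted p = 0.0512). With 6 libraries, 95 genes reached an r of 0.95, and the points share their libraries and their group difference.

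**Figure D2:**
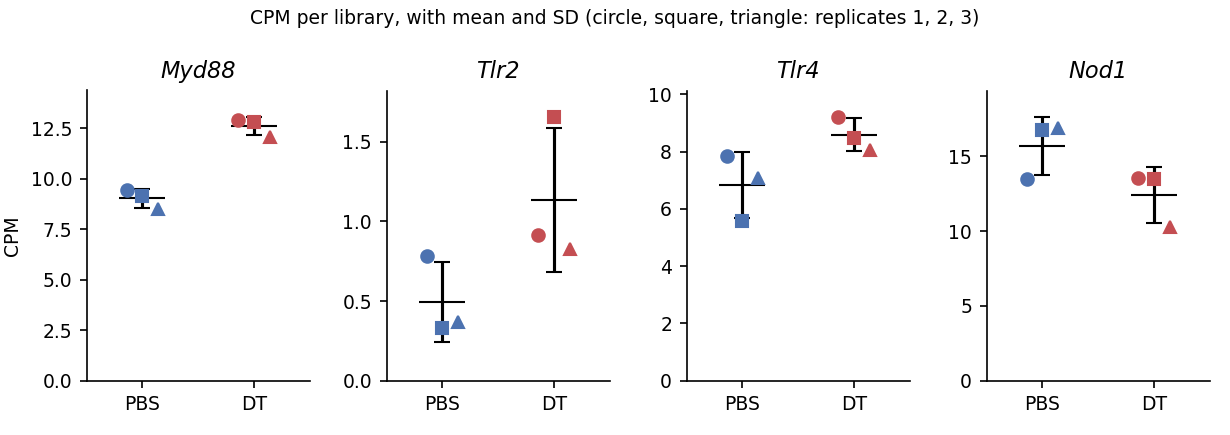
CPM of 4 genes in each PBS library (blue) and DT library (red), with the mean as a horizontal line and the SD as bars (n = 3), on axes that start at 0. The groups lie apart for *Myd88*, *Tlr2* and *Tlr4* and overlap for *Nod1*.

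*Tlr2*, a receptor for bacterial lipoproteins, lies at chr3:83836272-83841767 on the minus strand. It was barely detected, with 17, 11 and 8 reads in the PBS libraries and 21, 51 and 19 in the DT libraries. That is 0.78, 0.33 and 0.37 CPM after PBS and 0.92, 1.66 and 0.83 CPM after DT. The lowest DT library lay just above the highest PBS library, and DT replicate 2 was the highest. Summed over libraries, 36 reads (95% Poisson interval 25.2 to 49.8) stood against 91 (73.3 to 111.7), in 76926923 and 76155576 reads, where such intervals cover counting error only. Its log2 fold change was 1.07 with an interval of 0.08 to 2.07 (unadjusted p = 0.0378, limma adjusted p = 0.449, 0.377 to 0.728 over the alternatives). The exact permutation test gave p = 0.1, the smallest possible. The log2 fold change of *Tlr2* fell to 0.51 with a pseudocount of 1 and to 0.79 without DT replicate 2.

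*Tlr4* binds bacterial lipopolysaccharide together with *Ly96* and *Cd14*, and lies at chr4:66827584-66930284 on the plus strand. It had 170, 185 and 154 reads after PBS and 211, 261 and 185 after DT. The PBS libraries stood at 7.83, 5.58 and 7.07 CPM and the DT libraries at 9.21, 8.48 and 8.07 CPM. The groups did not overlap, though DT replicate 3 was close to PBS replicate 1. In TPM the level was 5.17 ± 0.79 after PBS and 6.58 ± 0.33 after DT (SD, n = 3 each). The log2 fold change of 0.34 had an interval of -0.03 to 0.71 (unadjusted p = 0.0673, limma adjusted p = 0.518, 0.388 to 0.756 over the alternatives), and the exact permutation test gave p = 0.1. Without PBS replicate 2 the log2 fold change was 0.20.

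*Ly96* encodes MD-2, which forms the lipopolysaccharide pocket with the *Tlr4* product, and lies at chr1:16688051-16709611 on the plus strand. Its reads were 31, 13 and 21 after PBS and 31, 26 and 17 after DT, or 1.43, 0.392 and 0.965 CPM against 1.35, 0.845 and 0.741 CPM. The DT libraries fell inside the range of the PBS libraries. The log2 fold change of 0.18 had an interval of -0.90 to 1.25 (limma adjusted p = 0.934), and it turned to -0.28 without PBS replicate 2 and to -0.06 without DT replicate 1. As a fold, the interval runs from 0.536 to 2.38, so it holds falls and rises alike. What spread the libraries was not tested.

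*Cd14* encodes the co-receptor that passes lipopolysaccharide to MD-2, and lies at chr18:36725067-36726798 on the minus strand. It had 20, 60 and 21 reads after PBS and 37, 60 and 55 after DT. In CPM these were 0.921, 1.81 and 0.965 after PBS and 1.615, 1.95 and 2.40 after DT. PBS replicate 2 lay within the DT range, and the other PBS libraries lay below it. *Cd14* had a log2 fold change of 0.69 with an interval of -0.06 to 1.44 (unadjusted p = 0.0657, limma adjusted p = 0.514), or 0.44 with a pseudocount of 1, and the exact permutation test gave p = 0.2.

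*Tlr7*, which reads single-stranded RNA, lies at chrX:167304929-167330558 on the minus strand. The PBS libraries held 11, 58 and 42 reads and the DT libraries 31, 20 and 8. The corresponding levels were 0.51, 1.75 and 1.93 CPM after PBS and 1.35, 0.65 and 0.35 CPM after DT. Libraries of both groups were widely spread and overlapped. *Tlr7* had a log2 fold change of -0.74 with an interval of -2.08 to 0.60 (limma adjusted p = 0.714), and it ranged from -1.30 without PBS replicate 1 to -0.33 without DT replicate 3.

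*Tlr9*, the receptor for unmethylated CpG DNA, lies at chr9:106222598-106226883 on the plus strand. It stayed under the filter and was not tested. Its reads were 0, 10 and 4 in the PBS libraries and 4, 10 and 8 in the DT libraries, summing to 14 (95% Poisson interval 7.65 to 23.5) and 22 (13.8 to 33.3). These intervals overlap, but they cover counting error only and are no test of a difference.

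*Nod1* encodes a cytosolic sensor of peptidoglycan fragments and lies at chr6:54923949-54972612 on the minus strand. There were 293, 556 and 368 reads after PBS and 310, 415 and 236 after DT. The PBS libraries were at 13.5, 16.8 and 16.9 CPM and the DT libraries at 13.5, 13.5 and 10.3 CPM. PBS replicate 1 met the upper DT libraries and the groups overlapped. In TPM the level was 10.7 ± 1.49 after PBS and 8.52 ± 1.27 after DT (SD, n = 3 each). For *Nod1* the log2 fold change was -0.34 with an interval from -0.68 to just above 0 (unadjusted p = 0.0511, limma adjusted p = 0.483), and the exact permutation test gave p = 0.2. The log2 fold change of *Nod1* was -0.21 without DT replicate 3.

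Counts over the members are set here beside the same counts over all genes. Of the 9 tested, 0 passed as higher and 0 as lower with limma, where 0.555% and 0.159% of all genes did. With edgeR and with DESeq2 on the recovered reads, 0 passed either, where 0.733% and 2.15% of all genes passed in one direction or the other. At an unadjusted p under 0.05, 2 members (*Myd88* and *Tlr2*) were higher, against 5.91% of all genes, and 0 were lower, against 4.51%. The groups did not overlap for 3 members, *Myd88*, *Tlr2* and *Tlr4*, all higher after DT, against 8.75% of all genes higher and 7.57% lower. Log2 fold changes were above 0 for 6 members and below 0 for 3, with a median of 0.18, where 7366 genes were above 0 and 7771 below, with a median of -0.01. With so few members these counts are a description and no test was made of the list.

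**Figure D3:**
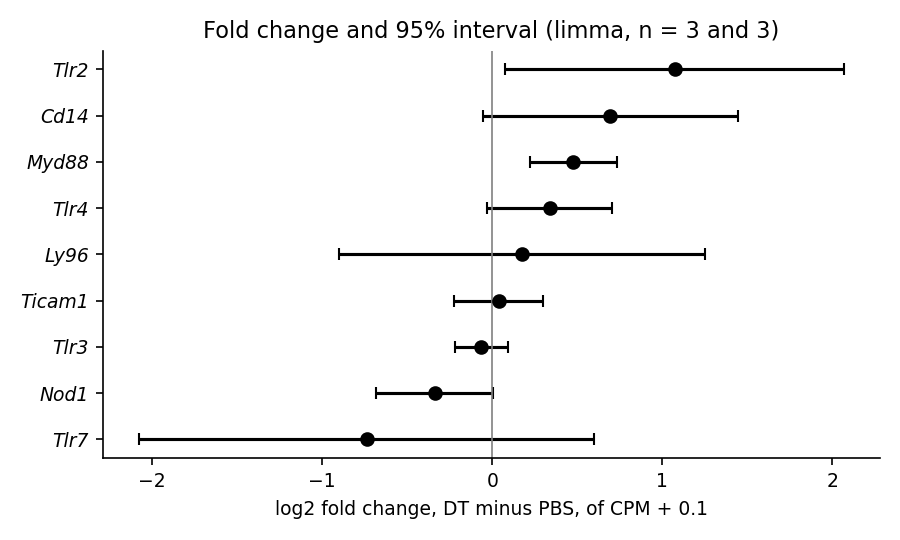
Log2 fold change of CPM + 0.1 (DT minus PBS) for the 9 tested genes, as a point with its 95% interval from limma (n = 3 and 3). The intervals of *Tlr2* and *Myd88* lie above 0 before adjustment over all genes, and those of *Tlr7*, *Ly96* and *Tlr2* are the widest.

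Cells of the macrophage lineage are known to express *Tlr2*, *Tlr4*, *Tlr7*, *Tlr9*, *Cd14*, *Ly96* and *Myd88*, and their markers moved in these libraries as given above. The summed microglia markers were 228, 255 and 242 CPM in the PBS libraries and 155, 134 and 139 CPM in the DT libraries. Those of border-associated macrophages were 27.3, 18.8 and 29.5 CPM after PBS and 76.5, 80.1 and 67.5 CPM after DT. *Tlr7*, *Tlr9*, *Cd14* and *Ly96* rested on few reads and overlapped between the groups. *Tlr2*, *Tlr4* and *Myd88* were higher in every DT library than in any PBS library, as was the border macrophage sum. *Tlr2* too rested on few reads, 36 after PBS and 91 after DT. Its lowest DT library (0.829 CPM) was close to its highest PBS library (0.783 CPM). What part cells of the macrophage lineage had in the values of these members was not tested.

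**Figure D4:**
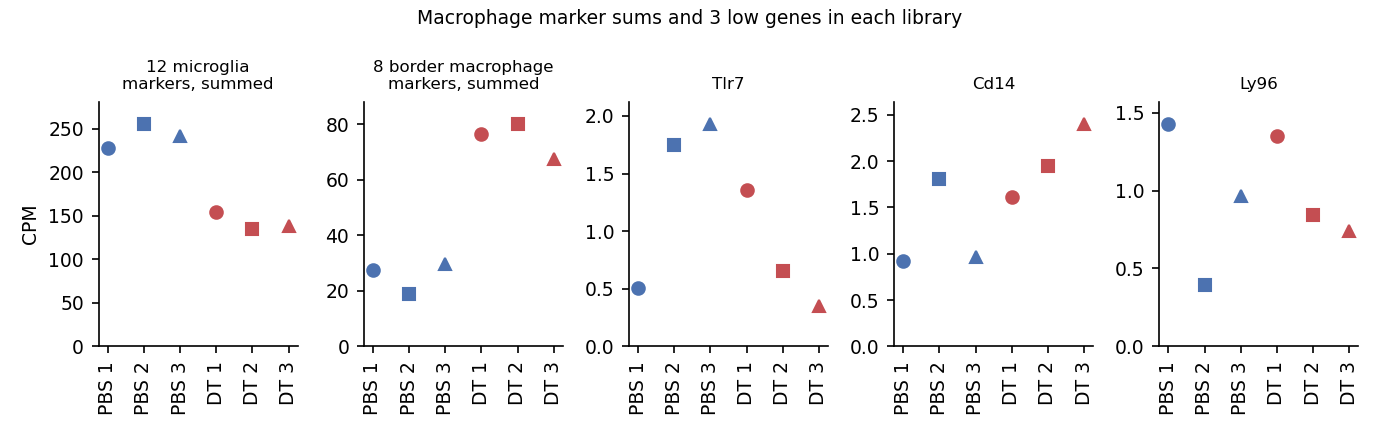
CPM in each of the 3 PBS libraries (blue) and 3 DT libraries (red) for the summed microglia markers, the summed border-associated macrophage markers, *Tlr7*, *Cd14* and *Ly96*, on axes that start at 0. The marker sums separate the groups in opposite directions, and *Tlr7*, *Cd14* and *Ly96* overlap between the groups. *Tlr2*, *Tlr4* and *Myd88*, whose groups lie apart, are not shown here.

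The rest of the pathway was examined in 8 lists of 81 genes in the table, members left out, of which 65 were tested. None passed as higher or lower, 29 were above 0 and 36 below, and the median log2 fold change was -0.02. At an unadjusted p under 0.05, 4 were higher and 3 lower, and the groups lay apart for 4 higher and 6 lower genes. The percentages given above for all genes are the background for these counts as well.

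Of the 7 other Toll-like receptors, 3 passed the filter and 0 of these passed the threshold. *Tlr6*, the partner of *Tlr2*, had 1.15 ± 0.43 CPM (SD, n = 3) after PBS and 1.60 ± 0.13 CPM after DT, with the groups apart (log2 fold change 0.52, limma adjusted p = 0.656). Without PBS replicate 1 the log2 fold change of *Tlr6* was 0.18, and with a pseudocount of 1 it was 0.30. *Tlr12* and *Tlr13* had log2 fold changes of -0.49 and -0.26, with overlapping groups, and *Tlr12* ranged from -0.94 without DT replicate 3 to -0.24 without DT replicate 2. *Tlr1*, *Tlr5* and *Tlr8* stayed below 0.3 CPM on average in both groups, and *Tlr11* was listed at 0 in every library.

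Among 7 chaperones and accessory proteins, all were tested and 0 passed. *Lbp*, which carries lipopolysaccharide to *Cd14*, was at 22.1, 25.5 and 20.0 CPM after PBS and 28.8, 35.3 and 51.5 CPM after DT. Every DT library was above every PBS library, and DT replicate 3 was the highest. The log2 fold change was 0.74 (standard error 0.20, limma adjusted p = 0.215), and DESeq2 was the only one of 17 alternatives to call it (adjusted p = 0.00606). *Ly86*, the MD-1 partner of the receptor CD180, had 1.56 ± 0.55 CPM (SD, n = 3) after PBS and 0.53 ± 0.31 CPM after DT (log2 fold change -1.47, limma adjusted p = 0.341). *Cd36*, a scavenger receptor that works with *Tlr2*, had 0 to 22 reads in the PBS libraries and 21 to 54 in the DT libraries (log2 fold change 2.03, limma adjusted p = 0.426). The value of *Cd36* was 1.16 without PBS replicate 2, 1.11 with a pseudocount of 0.5 and 0.75 with a pseudocount of 1, which also took *Ly86* to -0.74.

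Of 19 further adaptors and kinases, 18 were tested, 9 above and 9 below 0, with a median of 0.00079, in effect 0. *Irak2*, a kinase downstream of MyD88, was at 94.7, 87.8 and 85.4 CPM after PBS and 72.1, 69.4 and 71.3 CPM after DT. The groups were well apart, and the DT libraries lay within 3 CPM of each other. Its log2 fold change was -0.33 (standard error 0.06, limma adjusted p = 0.0815, 0.00451 to 0.341 over the alternatives), and of the alternatives 1, DESeq2, called it lower. *Irak4*, the kinase that first binds MyD88, was at 9.36 ± 0.54 CPM after PBS and 11.7 ± 0.80 CPM after DT (SD, n = 3 each), also with the groups apart (log2 fold change 0.32, limma adjusted p = 0.404). *Map3k7*, which encodes the kinase TAK1, had a log2 fold change of -0.11 with overlapping groups, from -0.18 without PBS replicate 3 to -0.067 without PBS replicate 2.

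All 3 interferon regulatory factors were tested. *Irf3*, the factor that TRIF signalling activates, was at 45.4 ± 0.52 CPM after PBS and 41.7 ± 1.46 CPM after DT (SD, n = 3 each), with every DT library below every PBS library (log2 fold change -0.12, limma adjusted p = 0.574). *Irf7* and *Irf5* had log2 fold changes of -0.18 and 0.02, and the groups overlapped. *Irf7* ranged from -0.40 without DT replicate 3 to -0.023 without DT replicate 2, and the sign of *Irf5* turned under several alternatives. Of 8 negative regulators, 7 were tested. *Sigirr*, *Tnfaip3* and *Peli1* had the smallest p-values, with log2 fold changes of -0.55, 0.28 and -0.12 and overlapping groups, the first of them at under 4 CPM in every library. All 3 values moved when 1 library was left out. *Sigirr* ranged from -0.95 without PBS replicate 1 to -0.21 without PBS replicate 3, *Tnfaip3* was 0.085 without DT replicate 1, and *Peli1* was -0.039 without PBS replicate 1.

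The other cytosolic sensors comprised 15 genes in the table, of which 14 were tested, 5 above and 9 below 0. *Ripk2*, the kinase through which *Nod1* signals, was at 10.6, 12.6 and 9.74 CPM after PBS and 9.60, 8.58 and 8.37 CPM after DT. The groups lay apart by a narrow margin, and the log2 fold change was -0.30 (limma adjusted p = 0.508), or -0.20 without PBS replicate 2. *Aim2*, a sensor of cytosolic DNA, had a log2 fold change of -0.60 from 1.99 ± 0.50 to 1.25 ± 0.09 CPM (SD, n = 3 each, limma adjusted p = 0.510), and -0.40 with a pseudocount of 1. *Ddx58*, which encodes the RNA sensor RIG-I, was at 32.4 ± 2.78 and 35.6 ± 4.23 CPM (log2 fold change 0.13, groups overlapping), with 0.075 to 0.23 when 1 library was left out, the lowest without DT replicate 2 and the highest without DT replicate 1.

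Of 12 genes for danger signals, which are cell or matrix proteins released or altered by damage, 10 were tested, 3 above and 7 below 0, with a median of -0.18. *Hspd1*, a mitochondrial chaperone, was at 104 ± 4.10 CPM after PBS and 119 ± 1.87 CPM after DT (SD, n = 3 each), with the groups apart (log2 fold change 0.20, limma adjusted p = 0.288). *Vcan*, which encodes the matrix proteoglycan versican, was at 111 ± 13.9 and 88.8 ± 3.47 CPM, with every DT library lower (log2 fold change -0.31, limma adjusted p = 0.290). *Tnc*, encoding tenascin C, had a log2 fold change of -0.29 with overlapping groups, or -0.19 without DT replicate 2. Of 10 other danger receptors, 3 were tested, all above 0. *P2rx7*, a channel opened by extracellular ATP, was at 42.3 ± 4.87 and 47.4 ± 3.31 CPM, with a log2 fold change of 0.16 that was 0.022 on the TPM. *Clec9a* and *Ager* had log2 fold changes of 0.64 and 0.10, and *Clec9a* was at 0.27 with a pseudocount of 1 and at 1.01 without PBS replicate 3, while *Ager* turned in sign without PBS replicate 2 or DT replicate 3. The groups overlapped for all 3, and *Clec4e*, *Clec4d*, *Fpr2* and *Trem1* were listed at 0 in every library.

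**Figure D5:**
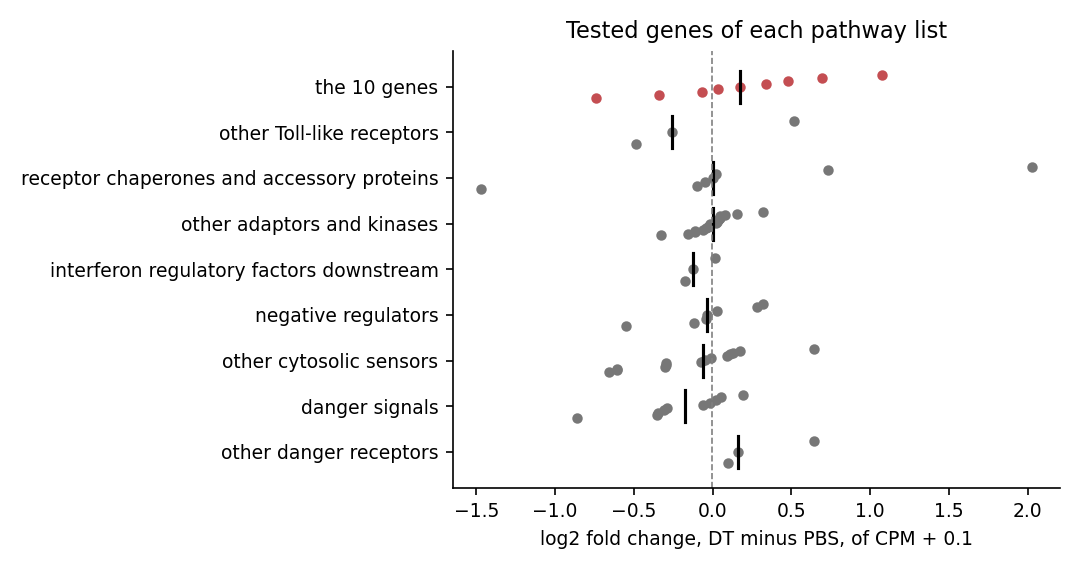
Log2 fold change of CPM + 0.1 (DT minus PBS) for each tested gene of the 10 members (red) and of 8 pathway lists (grey), with the median of each list as a black bar. The kinases and adaptors cluster around 0, and the accessory proteins extend from -1.47 (*Ly86*) to 2.03 (*Cd36*).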

How the data were processed

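RNA of MACS-isolated hippocampal astrocytes was sequenced as 151-nt paired-end reads from a stranded kit. According to the methods and the submitters' processing notes, the authors trimmed reads with Trim Galore 0.5.0, mapped them to mm10 with HISAT2 2.1.0, removed ribosomal reads with BEDTools 2.25.0, quantified genes with StringTie 1.3.5 and compared groups with edgeR 3.24.3. The deposited signal is CPM on library sizes scaled by TMM factors, with column sums of 980428 to 1026170, where plain CPM had been assumed in the design. The authors also deposited TPM, and columns of their own test (p, q and log fold change), which were not used. All values (100%) came out as whole reads within a tolerance of 0.1. Spreadsheet dates stood in place of 27 gene names.

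From the deposited CPM, log2(CPM + 0.1) was fitted with limma 3.58.1 (R 4.3.3; mean CPM no lower than 0.5, variance trend, two-sided, Benjamini-Hochberg over all genes tested, threshold 0.05). edgeR 4.0.16 (quasi-likelihood) and DESeq2 1.42.0 were run on the recovered reads. The fits were tested on simulated data, where the share of false calls exceeded the threshold with every tool when genes kept their own dispersions, and with DESeq2 also when they followed the trend. Replicates of a group differed by more than sampling noise. The members and lists were chosen with earlier results of these data known. Named are all members, in each pathway list the genes past the threshold and the 3 smallest p-values, cell type markers, and the 3 genes most like the member with the smallest p. Coordinates are GENCODE M21. Alternatives were other pseudocounts, filters, scalings and tools, TPM, no variance trend, a replicate block, and leaving out each library.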

Additional observations from a re-analysis of the deposited data

How the results depend on the processing

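Of the members, 0 were called higher and 0 lower in all 17 alternative fits. Their log2 fold changes kept their sign in 145 of the refitted values and turned in 4, for *Ly96* (-0.28 without PBS replicate 2, -0.058 without DT replicate 1) and *Ticam1* (-0.061 without PBS replicate 1, -0.0088 without DT replicate 3), whose values without 1 library ran from -0.28 to 0.54 and from -0.061 to 0.11. Among the other named genes, *Lbp* and *Irak2* passed with DESeq2 (0.77 and -0.33). Signs turned for *Tlr13* (0.043 without DT replicate 3, -0.60 to 0.043 over single libraries left out), for *Ager* (-0.099 without PBS replicate 2, -0.21 without DT replicate 3, -0.21 to 0.41 in all) and for *Irf5*, to -0.0012 with a pseudocount of 1, -0.036 with quantile normalization, -0.067 with edgeR, -0.074 with DESeq2 and between -0.20 and -0.047 without PBS replicate 1, PBS replicate 2, DT replicate 2 or DT replicate 3 (-0.20 to 0.40 over all libraries left out in turn). Over all genes, 84 higher and 24 lower became 227 and 98 with DESeq2, 35 and 11 without the variance trend, and 5 and 1 without a filter, where all 24421 rows entered. An added fit, chosen after seeing the data, of the 18817 genes with a read gave 69 and 19. Leaving out 1 library gave 39 to 72 higher genes, fewest without DT replicate 1 (39) and DT replicate 2 (40), and 9 to 20 lower genes, with 11, 9 and 10 without PBS replicates 1, 2 and 3 and 10 without DT replicate 2. The cause of these shifts was not tested. Replicate numbers are shared between groups. The deviations of same-numbered libraries correlated at 0.115, 0.0105 and 0.118, and those of different-numbered libraries at -0.124 to 0.0115. Pairing was neither stated nor settled by these values, and the main fit did not take the libraries as pairs. With the replicate number as a block, 79 genes were higher and 30 lower, with 0 members in either direction, and not every library correlated best with its own number. *Tlr2*, *Tlr7*, *Tlr9*, *Cd14* and *Ly96* had at most 60 reads in any library, so counting error is large for them, and what else spread their libraries was not tested.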
